A study of Mus musculus with 4 samples.

Results

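The comparison set 1 library of megakaryocytes labelled PF4-Cre knockout against 1 labelled PF4-Cre wild-type, 2 of the 4 libraries of the series. Genes were taken by their read counts, and 12316 of the 41214 gene identifiers had at least 100 counts in the higher of the 2 libraries. A member just inside that minimum was Glcci1, with 93 counts in wild-type and 100 in knockout.

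The study sequenced RNA of megakaryocytes from mice in which Gfi1b was labelled wild-type or knockout under a PF4-Cre or a ROSA-Cre transgene. All 4 groups were C57Bl/6 animals aged 8 weeks, and each group was 1 library. The cells came from leg and upper arm bones and had been gated as lineage-negative, cKit-positive, CD41-positive and CD61-positive. The Pf4 promoter, after which the first Cre is named, is active in megakaryocytes, and nothing further is stated of the ROSA-Cre transgene. The labels also do not say which exons were removed, or whether a library came from 1 animal or from a pool.

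Megakaryocytes are the large polyploid cells of the marrow that shed platelets. GFI1B and its paralogue GFI1 are zinc finger repressors that bind DNA with an AATC core and recruit the histone demethylase LSD1 with CoREST. GFI1B is needed for both megakaryocyte and red cell development, and GFI1 proteins are known to bind the regulatory DNA of their own genes.

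With 1 library a side there was no replicate error, so no gene was tested. Each value below is the ratio of knockout over wild-type after TMM scaling of the library sizes, with a 95% Clopper-Pearson interval that covers counting error only. A gene is said to have risen or fallen where that ratio was at least 2-fold. Every direction rests on the labels, because the Gfi1b count itself was higher in the library labelled knockout.

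Promoters, here 250 bases before to 50 bases after a transcript start in RefSeq (GRCm38.p6), are shown for Gfi1b, because it is the gene under study, and for the 3 genes that carry a longer form of the GFI1 motif and whose rise of at least 8-fold had the highest lower bound. In the Gfi1b window (minus strand, chr2:28621933-28622232) the capitals mark the core AATC on either strand. In the windows of Ctnna3 (plus strand, chr10:63429848-63430147), Palld (minus strand, chr8:61591090-61591389) and Rpp25 (plus strand, chr9:57503852-57504151) they mark AAATCAC on either strand, so that GTGATTT is the same motif read from the other strand.
Gfi1b: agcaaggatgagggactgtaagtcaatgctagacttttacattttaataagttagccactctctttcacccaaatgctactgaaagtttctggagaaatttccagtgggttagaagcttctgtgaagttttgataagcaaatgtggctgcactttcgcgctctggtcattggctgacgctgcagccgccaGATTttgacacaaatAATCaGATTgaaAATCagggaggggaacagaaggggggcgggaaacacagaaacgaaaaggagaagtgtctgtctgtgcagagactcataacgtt
Ctnna3: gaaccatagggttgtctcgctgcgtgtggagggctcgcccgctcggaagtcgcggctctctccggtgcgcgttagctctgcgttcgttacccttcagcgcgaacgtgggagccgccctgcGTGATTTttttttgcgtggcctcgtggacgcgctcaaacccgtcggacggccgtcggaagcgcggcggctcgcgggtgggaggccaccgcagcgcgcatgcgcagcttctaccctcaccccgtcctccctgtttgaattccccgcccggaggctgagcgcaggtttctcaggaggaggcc
Palld: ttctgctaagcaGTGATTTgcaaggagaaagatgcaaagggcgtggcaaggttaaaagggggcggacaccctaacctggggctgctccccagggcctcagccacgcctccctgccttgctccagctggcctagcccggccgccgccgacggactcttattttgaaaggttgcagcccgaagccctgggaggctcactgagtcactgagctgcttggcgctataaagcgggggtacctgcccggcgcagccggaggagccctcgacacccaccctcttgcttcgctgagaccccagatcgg
Rpp25: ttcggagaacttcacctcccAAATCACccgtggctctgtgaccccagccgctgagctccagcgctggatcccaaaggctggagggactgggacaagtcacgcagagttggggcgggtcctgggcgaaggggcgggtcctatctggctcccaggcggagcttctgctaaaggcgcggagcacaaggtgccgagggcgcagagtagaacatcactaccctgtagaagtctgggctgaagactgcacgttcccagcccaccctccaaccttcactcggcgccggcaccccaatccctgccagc
The Gfi1b window held 4 copies of the core, which began 60, 45, 40 and 33 bases before the start, and no copy of AAATCAC. The core is short and stood in 73.1% of all 32851 promoters of the same length, in 72.5% of those of genes that rose and in 66.3% of those of all genes past the count minimum. The longer motif AAATCAC stood in 3.53% of 991 promoters of genes that rose, in 5.18% of 193 promoters of genes at least 8-fold higher, in 1.99% of 11908 promoters of all genes past the count minimum, and in 1.49% of 201 promoters of genes that fell. Its share in all 32851 promoters was 3.2%, close to that of genes that rose. Median GC content differed between these sets, at 58.3% for genes that rose, 56.0% for those at least 8-fold higher, 60.7% for all genes past the minimum and 52.7% for all promoters, and its part in the difference was not tested. The motif AATCACNGC, which shares its first 6 bases with the end of AAATCAC and which the Palld window also holds, stood in 1.21%, 1.04% and 0.974% of the same 3 sets. Promoters were matched by symbol for 716 of the 948 raised genes with coordinates, and a match is a description of the letters, not of binding.

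Gfi1b, on chromosome 2 from 28609450 to 28621982, had 10137 counts in wild-type and 84744 in knockout, or 169.6 and 1401 CPM (counts scaled to TMM library sizes). The ratio was 8.26 (8.09 to 8.43). Counts are summed over all exons, so this value does not show which transcript the reads came from. Gfi1 rose from 471 to 2416 counts (5.07, 4.59 to 5.61). These were the 2 members called among the 16 measured genes of the list of GFI1 proteins and their LSD1-CoREST partners, and the other 14 lay within 2-fold. Within 1 Mb of Gfi1b 18 genes were measured. Besides Gfi1b itself, Rxra, a nuclear receptor for retinoids, went from 412 to 1145 (2.75), Spaca9 from 25 to 108 (4.27) and Olfm1 from 67 to 161 (2.37). None of the 18 fell, and the adjacent Gtf3c5 (1.49) and Tsc1 (0.963) stayed within 2-fold. Over all 12316 genes 7.71% rose and 1.63% fell, shares to set beside these 4 rises in 18 genes and the 2 in 16 above. At a share of 1.63%, the lack of a fall among 18 genes says little.

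Across all 12316 genes, 950 rose (7.71%) and 201 fell (1.63%) at least 2-fold. At 4-fold the numbers were 388 and 12, and at 8-fold 201 and 2, so that large rises were many and large falls few. For 756 of the raised and 111 of the fallen genes the whole counting interval lay past 2-fold. The median log2 ratio of all genes was -0.07 (quartiles -0.29 and 0.25). Genes that rose summed to 12230 CPM in wild-type and 38720 in knockout, while genes that fell summed to 5703 and 2270. Rises were found mostly among genes of low level, taken here as the geometric mean CPM of the 2 libraries. Of the 2464 genes with the lowest such mean 23.3% rose and 4.83% fell, and of the 2463 with the highest 1.5% rose and 0.203% fell. A near-silent level in either library lowers this mean, so large changes are in part placed among low genes by the measure itself. A gene of low level could enter through the knockout library alone, as 229 of the 950 raised genes did with under 50 counts in wild-type.

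**Figure D1:**
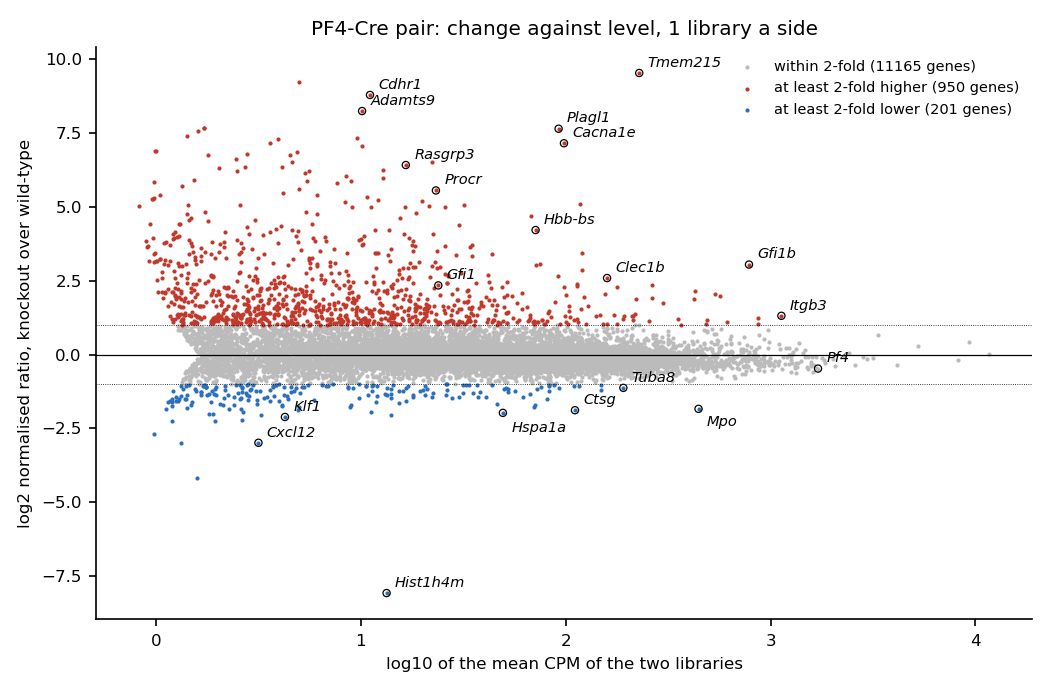
Each point is 1 of 12316 genes, with the log10 mean CPM of the PF4-Cre libraries on the horizontal axis and the log2 normalised ratio of knockout over wild-type on the vertical axis. Dotted lines mark 2-fold, and the 950 raised genes (red) spread further from 0 than the 201 that fell (blue), with Hist1h4m standing alone at the bottom.

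Some of the strongest rises came from genes that were almost silent in wild-type. Tmem215, which encodes a transmembrane protein, went from 37 to 27630 counts (738-fold, 535 to 1050). Its counts moved it from under 1 CPM (0.619) to 456.8 CPM. Plagl1, an imprinted zinc finger transcription factor, went from 55 to 11122 (200-fold, 153 to 265), and Cacna1e, the pore subunit of an R-type calcium channel, from 82 to 11789 (142-fold, 114 to 179). All 3 genes stood above 100 CPM in the knockout.

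A group of 55 genes had under 10 counts in wild-type and 100 or more in knockout, and 6 of them had 0 counts in wild-type. Cdhr1, a cadherin of photoreceptors, went from 3 to 1339 counts (441-fold, 151 to 2140). Adamts9, a secreted metalloprotease of the matrix, went from 4 to 1224 (302-fold, 118 to 1110), and Colec11, a collectin of the complement system, from 7 to 1150 (162-fold, 78.5 to 405). The long noncoding RNA Miat went from 9 to 1223 (134-fold, 70.5 to 294). Col17a1, a transmembrane collagen of epithelia, had 0 counts in wild-type and 438 in knockout, at least 117-fold higher by the counting interval and 144-fold against a floor of 3 counts in the wild-type library. Cdh20, another cadherin, went from 1 to 601, a ratio of 594 whose interval ran from 106 to 23500. Palld, an actin-bundling protein, went from 5 to 586 (116-fold), Lsmem1 from 9 to 669 (73.4-fold) and Myo18b, an unconventional myosin, from 9 to 640 (70.3-fold). Wild-type counts this low leave the size of each ratio wide, as the intervals show. The opposite pattern, under 10 counts in knockout and at least 100 in wild-type, was found for 1 gene, Hist1h4m. In the ROSA-Cre libraries 51 of the 55 had a ratio above 1, as had 49.3% of all 12316 genes, and 12 passed both the count minimum and 2-fold. Those libraries held fewer counts, so a large ratio could miss the minimum, as did that of Lsmem1 (0 and 97 counts, 35.5-fold).

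Among genes with some wild-type signal, Ctnna3, an alpha-catenin that links cadherins to actin, went from 29 to 2667 counts (90.9-fold, 63.1 to 136). Rasgrp3, an exchange factor for Ras and Rap GTPases, went from 23 to 1984 (85.2-fold, 56.6 to 135). Prrt4 and Rpp25, by contrast, were near-silent in wild-type and belong to the group of the paragraph before. Prrt4 went from 3 to 473 counts (156-fold, 53 to 758). Rpp25, a subunit of ribonuclease P whose promoter is printed above, had 0 and 117 counts, at least 30.8-fold higher by the counting interval and 38.5-fold against the same floor.

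**Figure D2:**
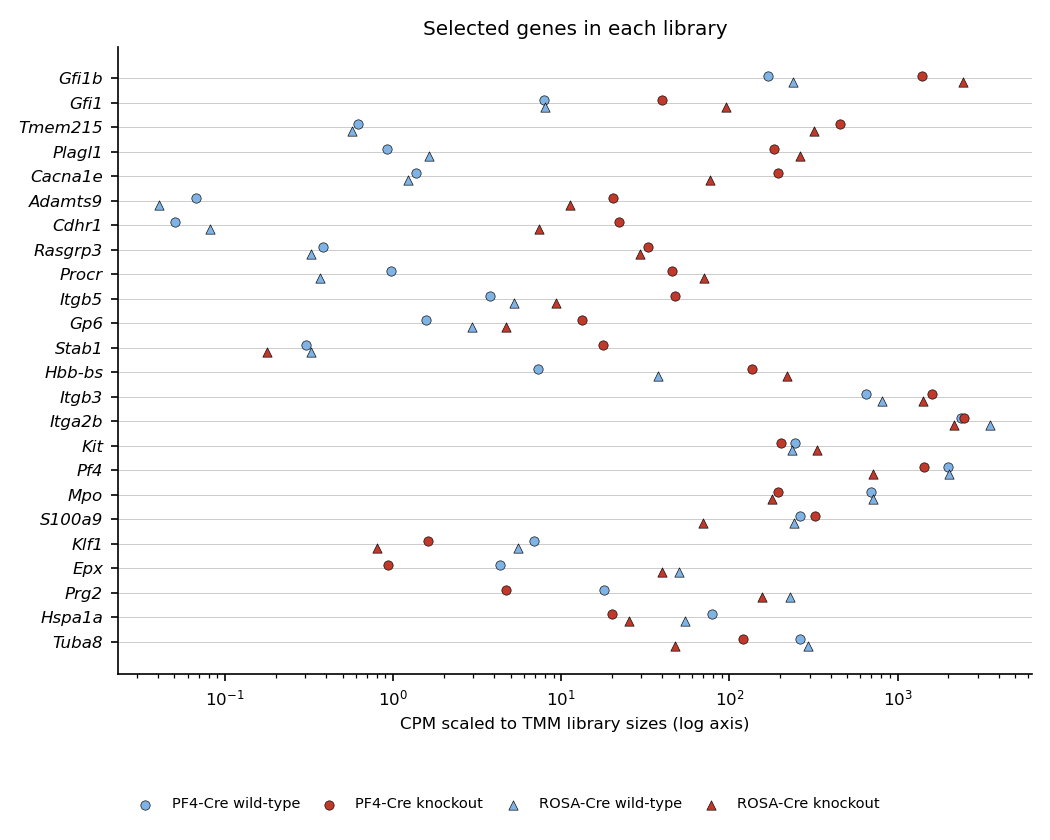
CPM of 24 genes in each of the 4 libraries on a log axis, with circles for PF4-Cre, triangles for ROSA-Cre, blue for wild-type and red for knockout. Tmem215, Plagl1 and Cacna1e sit near 1 CPM in both wild-type libraries and above 70 CPM in both knockouts, while Stab1 is under 1 CPM in 3 libraries and at 17.6 CPM in the PF4-Cre knockout.

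By amount of RNA, rather than by ratio, Gfi1b, the noncoding RNA Malat1 (474816 and 651678 counts, ratio 1.36) and Plek (155399 and 247532, ratio 1.57), the major substrate of protein kinase C in platelets, gained most, and of these Gfi1b passed 2-fold. Itgb3, the beta subunit of the platelet fibrinogen receptor, rose from 38780 to 97467 (2.48), and F2r, a thrombin receptor, from 33921 to 70343 (2.05). Mrvi1, a platelet substrate of cGMP-dependent kinase, rose from 12399 to 52356 (4.17), Tsc22d1, a leucine zipper regulator, from 13688 to 54881 (3.96), and Txnip, an inhibitor of thioredoxin, from 30916 to 73297 (2.34). Most of the 8 largest losses in CPM among the genes ranked were of abundant genes within 2-fold. They were Eef1a1 (0.872), Actb (0.780), Rack1 (0.784), Tubb5 (0.649), Top2a (0.669), Hspa5 (0.718) and Pf4 itself (0.720). Mpo, a myeloperoxidase of neutrophil precursors, was the exception among these 8, falling from 41584 to 11790 counts (3.57-fold lower). The rankings of gains and losses left out ribosomal protein, mitochondrially encoded, small RNA, predicted and immunoglobulin genes. The 78 cytosolic ribosomal protein genes, none past 2-fold, went from 68500 to 57200 CPM in sum.

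The genes of the sort gate bear on what cells were compared. Itga2b, which encodes CD41, had 142330 counts in wild-type and 149393 in knockout (1.04, 1.03 to 1.04), and Kit had 14612 and 12228 (0.827, 0.807 to 0.847). Of these gate genes Itgb3, which encodes CD61, passed 2-fold. The 15 fixed markers of sorted megakaryocytes had a median log2 ratio of -0.01, and 2 of them rose, Gp6 and Itgb3. All 15 passed the count minimum, which is applied to the higher library and so does not show that each marker was present in both. Gp6, with 94 counts in wild-type and 807 in knockout, passed it through the knockout library alone.

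Platelet adhesion receptors rose in 5 of 21 measured genes (23.8%) and fell in 1, with a median log2 ratio of 0.27. Here and in the lists below, shares are to be set beside the 7.71% of all genes that rose and the 1.63% that fell. A member with under 50 counts in 1 library passed the minimum through the other library alone, and so always counted as risen or fallen. Gp6, the collagen receptor, went from 94 to 807 counts (8.48, 6.84 to 10.6), and Clec1b, the podoplanin receptor CLEC-2, from 2714 to 16527 (6.02, 5.78 to 6.27). Fcer1g, the signalling chain that pairs with Gp6, went from 646 to 1930 (2.95). All 3 encode parts of receptors that signal through cytoplasmic tyrosine motifs. The one member that fell was Siglecf, from 314 to 77, a receptor better known from eosinophils, and the most abundant, Cd9, had a ratio of 1.16. The dendritic cell gene Clec9a, which overlaps the end of Clec1b on the same strand, went from 430 to 2779 (6.39), and it was not tested whether reads of the shared stretch enter either count.

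Integrin subunits rose in 3 of 17 measured genes (17.6%). Itgb5, the beta subunit of a vitronectin receptor, went from 224 to 2874 counts (12.7, 11.1 to 14.6), more than Itgb3, and Itga9 from 223 to 456 (2.02), a call lost after a GC and length correction. Itgb6, another partner of the alpha V subunit, fell from 181 to 79 (2.32-fold lower). Of 18 measured platelet G-protein-coupled receptors 3 rose (16.7%): the sphingosine 1-phosphate receptor S1pr1 (544 to 1716, 3.12), the prostaglandin receptor Ptger4 (127 to 331, 2.58) and F2r. P2ry14, a receptor for UDP-glucose, fell from 158 to 68.

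Of 28 measured genes of alpha granule cargo and biogenesis 5 rose (17.9%, against 7.71% of all genes), led by Sparc, the matrix glycoprotein osteonectin, from 31 to 1263 counts (40.3, 28.2 to 59.5). Timp3, a metalloprotease inhibitor, rose from 10698 to 40121 (3.71) and the growth factor Pdgfc from 17 to 193 (11.2). The list's median was 0.05, and Vwf had 84569 and 88075 counts (1.03). Of 25 measured dense granule genes 2 rose, a share (8.0%) near that of all genes: Slc18a2, the vesicular monoamine transporter (8218 to 27735, 3.33), and Slc35d3 (7251 to 18901, 2.58). The most abundant, Rab27b, stayed at 1.06.

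Signalling downstream of the receptors was mostly flat. In the list of ITAM, LAT and Rap1 signalling, 2 of 42 measured genes rose (4.76%), Rasgrp3 and the adaptor Grap2 (2401 to 9776, 4.02). The adaptor Dok2 fell from 6718 to 3228 (2.11-fold lower). Alox12, the platelet lipoxygenase, went from 306 to 3199 (10.3, 9.18 to 11.7). Hpgds, the haematopoietic prostaglandin D synthase, went from 213 to 1196 (5.55), and Rgs3 from 103 to 244 (2.34). The other 15 measured genes of that eicosanoid and G-protein regulator list lay within 2-fold, and Rgs18, its most abundant member, had a ratio of 1.

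Of 30 measured megakaryocyte transcription factors 3 rose (10%, near the 7.71% of all genes): Ets1 (3745 to 11742 counts, 3.10, 2.99 to 3.21), Mecom (1862 to 4104, 2.18) and Ikzf2 (2655 to 5712, 2.13). Mecom and Ikzf2 lay near the limit and did not pass it after a GC and length correction. Klf1, the master activator of red cell genes, fell from 414 to 97 (4.32-fold lower, 3.46 to 5.45). Gata2, which is needed in progenitors and mast cells, stood just under the limit with 9118 and 18314 counts (1.98).

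The cytoskeleton lists did not move together. All but 1 of 13 measured tubulins had a ratio below 1, with a median log2 ratio of -0.56, and Tuba8 fell from 15683 to 7272 counts (2.18-fold lower). Tubulins have near-identical copies, so reads could be split among them. In 77 measured genes of the actin cytoskeleton the median was -0.10, while 13 rose (16.9%) and 3 fell (3.9%). After Palld, the rise with the highest lower bound was that of Myo6, a myosin that moves towards the minus end of actin filaments, which rose from 951 to 8083 (8.40, 7.85 to 8.99), followed by Limch1 (15 to 186, 12.3). Cnn3, a calponin, fell from 134 to 45 (3.01-fold lower), and Myo1d from 241 to 94 (2.59-fold lower). Tpm2 had 441 and 221 counts (2.02-fold lower) and did not pass 2-fold under any of the 6 other scalings and corrections. Among microtubule proteins and motors 4 of 38 measured genes rose (10.5%, near the 7.71% of all genes). They included Map1a (7 to 150, 21.2) and the neuronal kinesin Kif5a (43 to 328, 7.54).

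The lists of replication and mitosis lay below 1 in all but 1 of their measured genes, and that gene was the one past 2-fold. All 50 measured genes of DNA replication and S phase had a ratio below 1, with log2 ratios from -0.78 to -0.21 and a median of -0.49. None of the 50 fell by the 2-fold rule, against 1.63% of all genes. Mcm6, a subunit of the replicative helicase and the most abundant member, had 58389 and 49012 counts (0.829). Of 49 measured genes of mitosis and cytokinesis 48 had a ratio below 1 (median -0.47), and the one above, Ect2, an exchange factor needed for cytokinesis, rose from 1162 to 2519 (2.14, 2 to 2.30). Ect2 fell below 2-fold once chromosome medians were removed. Across the scalings tried the median of all genes lay between -0.07 and 0.02, so neither of these list medians changed sign.

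Around the G1 checkpoint, Cdkn1c, the imprinted kinase inhibitor p57, went from 101 to 598 counts (5.85, 4.73 to 7.30). Ccnd1, cyclin D1, fell from 4404 to 1859 (2.40-fold lower). Of the 24 measured genes of that list these were the ones that passed 2-fold. Cdk6 had a ratio of 1.06.

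Histone genes had a median log2 ratio of -0.72, with 55 of 63 measured genes below 1. Hist1h4m fell from 1592 to 6 counts (269-fold lower, 123 to 733), and its counts in the ROSA-Cre libraries were 1027 and 912. It is 1 of many near-identical histone H4 genes, so this value is uncertain. Hist2h2ab, another clustered histone, fell from 2190 to 971. H2afy2, which encodes the variant macroH2A2, rose from 23 to 443 (19, 12.5 to 30.3), and the replacement histone gene H3f3b stayed at 1.27.

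Metabolic gene groups sat below the all-gene median with few genes past 2-fold. Of 54 nuclear genes of oxidative phosphorylation 53 had a ratio below 1 (median log2 ratio -0.35), and none passed 2-fold. The 78 cytosolic ribosomal protein genes had a median of -0.29 and the 26 measured genes of the unfolded protein response -0.37, again with none past 2-fold. The 9 measured mitochondrially encoded genes stood at -0.08. Cholesterol synthesis had a median of -0.49 over 24 measured genes. In 26 measured glycolysis genes, Hk3, a myeloid hexokinase, fell from 2725 to 1338 (2.06-fold lower), a call that held with TMM over all 4 libraries and not with TMM of the PF4-Cre libraries alone.

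The inducible chaperones Hspa1a and Hspa1b fell from 4706 to 1214 counts (3.92-fold lower) and from 6446 to 1923 (3.39-fold lower). These are adjacent, near-identical HSP70 genes whose reads cannot be fully separated. No other member of the 21 measured cytosolic heat shock chaperones passed 2-fold, and the constitutive Hspa8 had a ratio of 0.895. Of 24 measured immediate early genes, which respond within minutes to stimulation, 4 rose (16.7%) and 1 fell (4.17%). Dusp5, a phosphatase of the ERK kinases, rose from 169 to 433 (2.53), and its relative Dusp6 fell from 2441 to 887 (2.79-fold lower).

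Chdh, choline dehydrogenase of mitochondria, fell from 1349 to 330 counts (4.14-fold lower, 3.67 to 4.68), among the largest falls of a gene outside the lists.

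**Figure D3:**
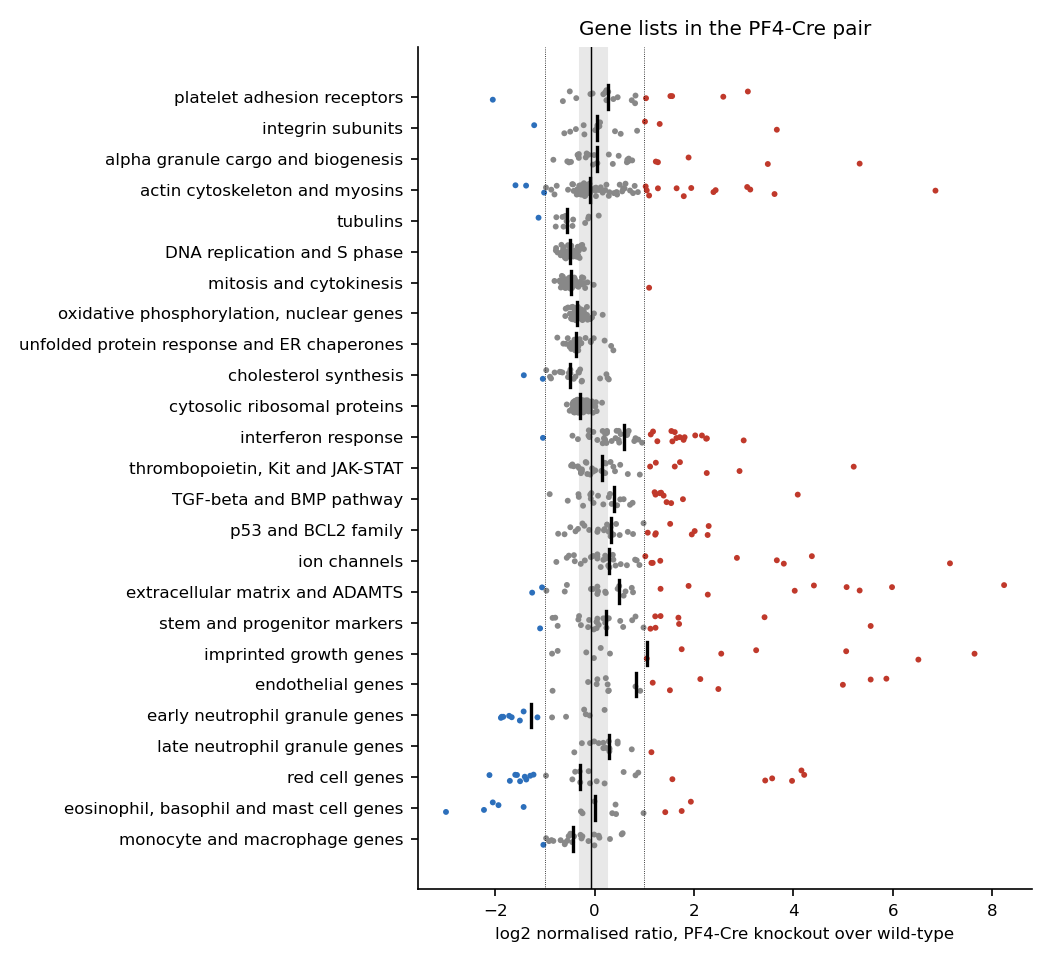
Each point is 1 measured member of a gene list, placed by its log2 ratio of PF4-Cre knockout over wild-type. Black bars are list medians, the grey band spans the quartiles of all 12316 genes (-0.29 to 0.25) and the vertical line their median (-0.07). Replication, mitosis and oxidative phosphorylation sit as narrow groups below 0, whereas matrix, imprinted and endothelial genes spread far to the right.

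Interferon response genes formed the list with the largest number of rises, though not the largest share. Of 46 measured genes 15 rose (32.6%) and 1 fell (2.17%), and the median log2 ratio was 0.59. Shares were larger in some smaller lists, among them imprinted growth genes (53.8%) and endothelial genes (41.2%). Ifi44 went from 295 to 2389 counts (8.00, 7.09 to 9.06). Irf7, the transcription factor that amplifies the interferon response, went from 470 to 2278 (4.79), and Rtp4 from 182 to 874 (4.74). Tap1, the peptide transporter of antigen presentation and the most abundant member, had 17026 and 16045 counts (0.931). Tgtp1, a GTPase with a near-identical neighbour, went from 138 to 68 (2.05-fold lower).

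In the list of thrombopoietin, Kit and JAK-STAT signalling, 7 of 34 measured genes rose (20.6%) and none fell. Csf2rb2, the beta chain used by the mouse interleukin 3 receptor, went from 38 to 1427 counts (37.1, 26.9 to 52.7), and Csf2rb, its close copy, from 788 to 2438 (3.06). Socs2, an inhibitor induced by cytokines, went from 237 to 1810 (7.55), and Kitl, the ligand of Kit, from 78 to 377 (4.78). Jak2, the kinase of this pathway and its most abundant member here, stood at 0.792.

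The TGF-beta and BMP pathway had 9 rises in 28 measured genes (32.1%) and no fall, with a median of 0.40. The ligand Bmp2 went from 8 to 138 counts (17.0, 8.41 to 40.3). Bmpr2, a type II receptor, rose from 1875 to 5526 (2.91), and Ltbp1, which holds latent TGF-beta in the matrix, from 5846 to 14983 (2.53). In the Notch and Wnt list 5 of 19 measured genes rose (26.3%) and 2 fell (10.5%). The ligand Wnt10b went from 16 to 910 (56.2, 34.4 to 98.7), the Notch target Hes1 from 69 to 371 (5.31) and Tcf7l2, a nuclear partner of beta-catenin, from 57 to 196 (3.40). Axin2, a feedback target of Wnt signalling, fell from 132 to 38 (3.52-fold lower), and Nrarp, a feedback target of Notch, from 1340 to 584 (2.32-fold lower). Of the Notch targets named, Hes1 thus rose and Nrarp fell.

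Of 31 measured genes of the p53 and BCL2 family list 8 rose (25.8%) and none fell, with a median of 0.32. Trp53inp1, a p53 target, rose from 1000 to 4901 counts (4.84, 4.52 to 5.19), Phlda3, an inhibitor of AKT, from 78 to 388 (4.91), and Eda2r, a death receptor, from 356 to 1399 (3.88). Mcl1, the survival factor, had a ratio of 1.05.

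Ion channels rose in 9 of 35 measured genes (25.7%), and none fell. After Cacna1e came P2rx7, an ATP-gated channel (167 to 3491 counts, 20.7, 17.7 to 24.3), and Ryr1, the calcium release channel of muscle (161 to 2067, 12.7, 10.8 to 15.0). Kcnj5, an inward rectifier and the most abundant channel of the list, rose from 18056 to 41152 (2.25).

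Extracellular matrix genes rose in 9 of 27 measured genes (33.3%) and fell in 2 (7.41%). Besides Adamts9, Lamb2, a laminin chain of basement membranes, went from 24 to 1537 counts (63.3, 42.4 to 99.1) and Sparc, named above with the granule cargo, also stood in this list. Timp2 fell from 384 to 163 (2.38-fold lower) and Col1a2, a chain of type I collagen, from 1366 to 665 (2.08-fold lower). Serpinh1, the collagen chaperone HSP47, went from 140 to 2029 (14.3, 12.1 to 17.1). Most of the 58 listed genes stayed under the count minimum, and 5 of the 27 measured had under 50 counts in 1 of the libraries.

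Stem and progenitor markers rose in 8 of 34 measured genes (23.5%) and fell in 1 (2.94%). Procr, the endothelial protein C receptor that marks stem cells, went from 58 to 2757 counts (47.0, 36.2 to 62.0), Fgd5 from 121 to 1312 (10.7), and the homeobox gene Hoxa9 from 1099 to 3585 (3.22). Prdm16, a regulator of stem cell maintenance, fell from 431 to 204 (2.14-fold lower). Of 13 measured imprinted growth genes 7 rose (53.8%, median 1.05). Plagl1 led them, followed by H19, an imprinted noncoding RNA (6 to 555, 91.4, 41.7 to 250), and Mest (5 to 169, 33.4). Gnas, the most abundant imprinted gene listed, had a ratio of 1.09. Of the 13, 3 passed the count minimum with under 50 counts in wild-type.

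Genes of other blood and marrow cells moved in both directions, and in bulk RNA fewer cells of a type and less RNA per cell cannot be told apart. Early neutrophil granule genes fell in 8 of 14 measured genes (57.1%) with a median of -1.29, the lowest of the 49 lists. Mpo and the protease Ctsg (10443 to 2868 counts, 3.69-fold lower) led, followed by the elastase gene Elane (6460 to 1989, 3.29-fold lower). The summed level of the list went from 3340 to 1880 CPM, of which Calr, a chaperone that most cells make, was 1505 and 1012 CPM. Late neutrophil granule genes did not follow: none of 17 fell, 1 rose, and their sum went from 806 to 1000 CPM. S100a9, a calcium-binding protein of mature neutrophils, had 15725 and 19476 counts (1.22).

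Red cell genes split, with 22.2% of those measured raised and 33.3% fallen. Of 27 measured genes 9 fell, including Klf1, the membrane protein Tspan33 (821 to 255, 3.26-fold lower) and carbonic anhydrase Car1 (1066 to 357, 3.02-fold lower). Globin genes and Alas2 were among the 6 that rose: Hbb-bs went from 436 to 8189 counts (18.6, 16.9 to 20.5), Hba-a2 from 31 to 563 (17.9) and Alas2, the first enzyme of heme synthesis in red cells, from 48 to 764 (15.7). Of the 27 measured red cell genes, 5 had under 50 counts in 1 of the libraries, among them Hba-a2 and Alas2. Globins have near-identical copies, so the split of reads between them is uncertain. In the list of heme synthesis and iron, Alas2 rose and Hmox1, which breaks heme down, fell from 380 to 146 (2.63-fold lower), and the other 21 measured genes lay within 2-fold.

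Of 15 measured eosinophil, basophil and mast cell genes 3 rose and 5 fell. Among eosinophil granule genes Prg3 fell from 141 to 18 counts (7.93-fold lower, 4.84 to 13.8), the peroxidase Epx from 259 to 56 (4.68-fold lower, 3.50 to 6.37) and the major basic protein Prg2 from 1069 to 283 (3.82-fold lower, 3.35 to 4.37). On the basophil and mast cell side Fcer1a, the IgE receptor chain, rose from 255 to 869 (3.37), Cd200r3 from 32 to 124 (3.83) and Il1rl1, the interleukin 33 receptor, from 232 to 630 (2.68). Of 24 measured monocyte and macrophage genes none rose and 1 fell (4.17%), C1qc (224 to 111, 2.04-fold lower). Their median log2 ratio was -0.43, with 19 ratios below 1 and 5 above, and their sum went from 913 to 834 CPM. Lyz2, the most abundant member, had a ratio of 1.06.

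Genes known from endothelium rose in 7 of 17 measured genes (41.2%, median 0.83). Stab1, a scavenger receptor of sinusoidal endothelium, went from 18 to 1065 counts (58.5, 36.8 to 99). Plvap, which forms the diaphragms of endothelial fenestrae, went from 41 to 1322 (31.9, 23.4 to 44.6), and Procr stood in this list as well. Of the 17, 3 had under 50 counts in 1 of the libraries, among them Stab1 and Plvap. Adgrl4, an adhesion receptor of endothelium outside this list, fell from 7601 to 3517 counts (2.19-fold lower). The sum of the list went from 2100 to 2440 CPM, of which Vwf, which megakaryocytes also make, was the largest part. Among 8 measured stromal and bone genes 3 rose and 3 fell (37.5% each), and 3 of the 8 had under 50 counts in 1 of the libraries. Postn, a matrix protein, rose from 17 to 231 (13.4), and Nes, an intermediate filament gene, from 47 to 298 (6.26). The chemokine Cxcl12 fell from 336 to 43 (7.91-fold lower, 5.75 to 11.1). Few genes of B cells and T cells were measured: 4 of 20 and 5 of 22 listed genes passed the minimum, and the summed levels of the lists went from 160 to 103 and from 10.5 to 11.7 CPM. Of 20 listed genes of dendritic cells and MHC class II 15 passed it, their sum went from 342 to 416 CPM, and 2 rose, Clec9a and Zbtb46 (68 to 167, 2.43). The part of any of these cell types in the results for megakaryocyte genes was not tested.

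Calls close to 2-fold were the least stable: those of Dok2, C1qc, Col1a2, Prdm16, Tgtp1 and Hist2h2ab were lost under at least 1 other scaling or correction, as was that of Cd4, a member of the T cell list (107 and 52 counts).

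By gene class, long intergenic noncoding RNAs rose in 24 of 144 measured genes (16.7%) and antisense genes in 20 of 130 (15.4%), against 876 of 11354 protein-coding genes (7.72%). Processed pseudogenes rose in 1 of 285. These classes differ in level, and the share of rises went with level as measured above, with the limit given there.

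The ROSA-Cre pair shares no library with the PF4-Cre pair and was set beside it. Of the 950 genes that rose in PF4-Cre, 908 (95.6%) had a ROSA-Cre ratio above 1, as had 49.3% of all 12316 genes. Of the 201 that fell, 181 (90.0%) had a ROSA-Cre ratio below 1, against 50.7% of all. In ROSA-Cre 1138 of 11151 genes rose (10.2%) and 544 fell (4.88%). The lists of rises shared 597 genes, 62.8% of the PF4-Cre list and 52.5% of the ROSA-Cre list. The lists of falls shared 95, 47.3% and 17.5%. Of the PF4-Cre rises 674, and of the PF4-Cre falls 131, had 100 or more counts in the higher ROSA-Cre library. The others could not be called in ROSA-Cre, whose libraries held fewer counts, and this limits the shares of the PF4-Cre lists. Median log2 ratios of the PF4-Cre rises were 1.73 in PF4-Cre and 1.86 in ROSA-Cre. Across 11109 genes past the minimum in both pairs the log2 ratios had a Pearson r of 0.834 and a Spearman rho of 0.799, a description across genes, which are not independent. Between the wild-type libraries of the 2 models, 872 of 11770 genes (7.41%) differed at least 2-fold, with no Gfi1b knockout on either side. These 2 libraries differ in Cre transgene, in sex-linked transcripts and in depth. A GC and length trend had an r squared of 0.351 between them, against 0.0158 in the PF4-Cre pair. The 7.41% therefore does not give the spread between libraries within the PF4-Cre pair. A test of the difference between the models has as many parameters as there are libraries, so no difference between them was tested.

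**Figure D4:**
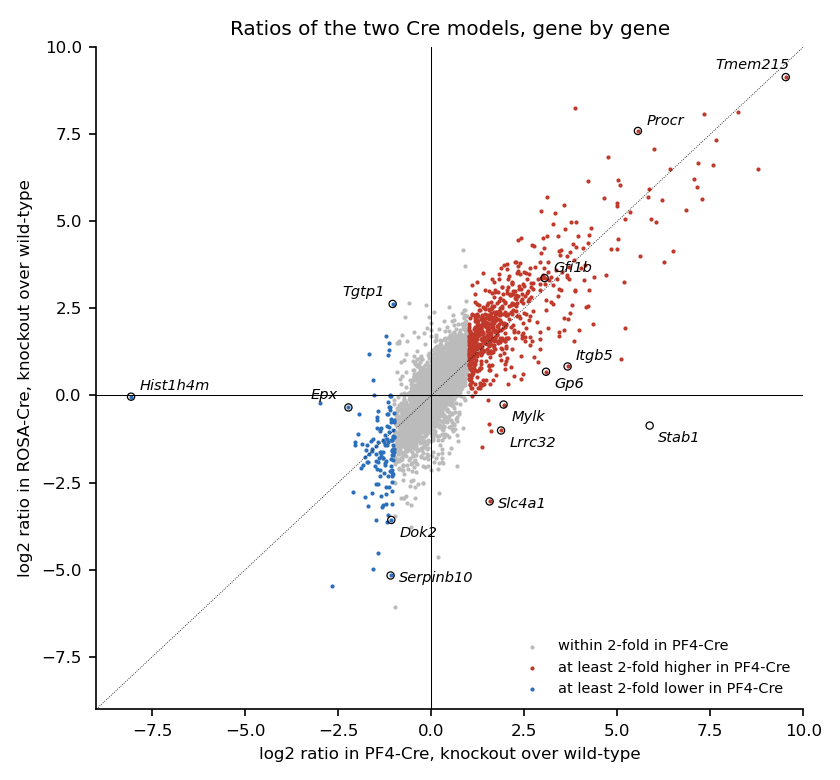
Each point is a gene with 100 or more counts in the higher library of both pairs, placed by its log2 ratio in PF4-Cre (horizontal) and in ROSA-Cre (vertical), coloured by its call in PF4-Cre. Circled genes are named, Stab1 and Hist1h4m lie far from the dotted line of equal ratios, and Stab1 is drawn although its ROSA-Cre counts were under the minimum.

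Several genes had a much larger ratio in PF4-Cre. Stab1 had 8 and 4 counts in ROSA-Cre wild-type and knockout. For Itgb5 the PF4-Cre ratio of 12.7 stood beside 1.78 for ROSA-Cre (129 and 209 counts), and for Gp6 8.48 stood beside 1.6 (72 and 105 counts). Cdh20 had 0 and 5 counts in ROSA-Cre, and Myo18b 20 and 43. Serpinh1 stood at 14.3 and 2.96, and Bmp2 at 17.0 and 2 from 11 and 20 ROSA-Cre counts. For Procr the larger ratio was that of ROSA-Cre, 193 against 47.0. These genes were singled out for the comparison after their values had been seen.

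Among markers of other cells the models also stood apart in value. The median of early neutrophil genes was -1.29 for PF4-Cre and -1.57 for ROSA-Cre, whereas that of late neutrophil genes was 0.28 and -1.80, with 13 of 14 measured late genes fallen in ROSA-Cre. Epx was 4.68-fold lower in the PF4-Cre knockout and 1.27-fold lower in the ROSA-Cre knockout, where it did not pass 2-fold, a difference that was not tested. The libraries of the models also differed in sex-linked transcripts. Xist, made from the inactive X chromosome, had 75074 and 77495 counts in the PF4-Cre libraries and 2818 and 6334 in the ROSA-Cre libraries, while the Y-linked Ddx3y had 0 and 0 against 1607 and 1791. The PF4-Cre pair was thus matched in these genes (Xist ratio 1.02), the ROSA-Cre libraries held both kinds, and the part of sex in differences between the models was not tested.

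A shift by chromosome was seen in the PF4-Cre pair. It was measured in 10247 genes within 2-fold in the PF4-Cre pair and past the count minimum in both pairs. All lay on the autosomes or X and had a known GC content and length. Those on chromosomes 1, 3, 7 and 12 had median log2 ratios of 0.04 to 0.08, and those on the other 16 chromosomes -0.19 to -0.10. The difference of medians was 0.19, or 1.14-fold. All 31 windows of 20 Mb with 20 or more genes on these 4 chromosomes lay above the overall median, and 38 of 103 elsewhere. After removal of a trend with GC content and length the ranges were 0.02 to 0.06 and -0.19 to -0.12. The ROSA-Cre pair, corrected in the same way, had -0.14 to -0.01 on the 4 chromosomes and -0.11 to 0.01 on the rest. ROSA-Cre knockout over PF4-Cre knockout gave -0.19 to -0.11 and -0.01 to 0.07, and ROSA-Cre wild-type over PF4-Cre wild-type -0.02 to 0.00 and -0.06 to 0.02, both of which share libraries with the pair. The PF4-Cre knockout library is in both of the pairs that showed the shift. The share of raised genes was 10.4% there (275 of 2656) and 7.02% elsewhere (673 of 9582), and that of fallen genes 1.09% and 1.78%. The 4 chromosomes were singled out after their values were seen, and no cause was tested. Many of the genes named above lie on them, among them Cacna1e, Colec11, Gp6, Mrvi1, Txnip and Siglecf. With chromosome medians removed, Mecom and Ect2 on chromosome 3 and Ikzf2 on chromosome 1 no longer passed 2-fold.

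**Figure D5:**
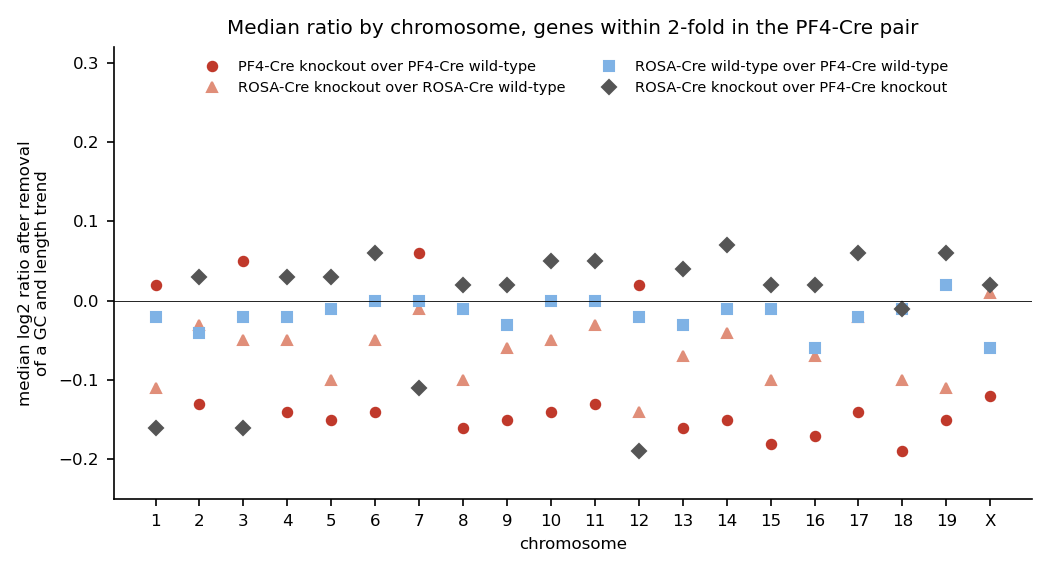
Median log2 ratio per chromosome after removal of a GC and length trend, for 4 pairs of libraries. The same 10247 genes were used throughout, within 2-fold in the PF4-Cre pair and past the count minimum in both Cre models. PF4-Cre knockout over wild-type (red circles) lies between 0.02 and 0.06 on chromosomes 1, 3, 7 and 12 and between -0.19 and -0.12 on the others, and the pair of knockouts (grey diamonds) shows the reverse.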

How the data were processed

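Sorted mouse megakaryocytes were sequenced in 4 groups of 1 library. Per the labels' protocols, RNA came from a MagMax-96 kit and libraries from a stranded TruSeq mRNA kit. TopHat2 2.0.10, HTSeq, SAMtools and DESeq are listed in the submitters' processing notes, with mm10 and GRCm38 as builds. Neither the annotation release nor the strand setting is given in the sources used here. The authors deposited raw read counts per Ensembl gene, and the 5 lines of HTSeq categories were left out of library sizes. Gene counts totalled 61652843 and 59595680 in the PF4-Cre libraries (wild-type first) and 24869421 and 21835165 in the ROSA-Cre libraries, so that 0 counts (taken as up to 3) allowed 0.0487, 0.0503, 0.121 and 0.137 CPM. Reads in no gene made up 32.1%, 36.1%, 34.9% and 36.2% in that order.

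Library sizes were scaled by TMM (edgeR 4.0.16, R 4.3.3, 15063 genes, all 4 libraries). Ratios carry exact intervals from scipy 1.17.1, which were tested on simulated data. Intervals and floors cover counting error only, because PCR copies were not marked by molecular identifiers. Symbols were found for 40254 identifiers (GENCODE M21 and NCBI tables), and 13 listed symbols were not matched. The genes compared, the 49 lists and the rules were chosen with earlier results of these data known. Named were Gfi1b and Gfi1, the 12 largest changes each way by the interval bound nearest 1, the 8 largest CPM gains and losses, up to 8 near-silent genes each way, up to 6 each way that moved oppositely in ROSA-Cre, up to 3 each way and the most abundant gene of each list, gate and sex genes, genes at the count minimum and genes within 1 Mb of Gfi1b. The rankings over all genes left out ribosomal protein, mitochondrially encoded, small RNA, predicted, immunoglobulin and T cell receptor genes. Csf2rb and Rpp25 were named outside that rule after their values were seen. Some single genes that the rule takes are not reported here. Alternatives were total counts, DESeq2 1.42.0 size factors, TMM of the PF4-Cre libraries alone, upper quartile scaling, other count minimums and fold limits, a pseudocount, a GC and length correction, removal of erythroid, neutrophil and mitochondrial genes and, added after seeing the data, removal of chromosome medians.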

Additional observations from a re-analysis of the deposited data

Results flagged for a closer look

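Of the 950 genes raised in PF4-Cre 4 fell at least 2-fold in ROSA-Cre, and of the 201 fallen 6 rose there, each pair being 1 library a side, and none of these differences was tested. Lrrc32, which displays latent TGF-beta on platelets, stood at a PF4-Cre ratio of 3.67 beside 0.498 for ROSA-Cre. Synm, an intermediate filament gene, had 3.07 and 0.489, Slc4a1, the anion exchanger of red cells, 2.96 and 0.122, and the interferon-induced Slfn4 2.55 and 0.356. The reverse held for Adgrl4, an adhesion receptor of endothelium, at 0.457 and 2.46, for the MHC class I gene H2-Q1 at 0.429 and 3.27, and for Tgtp1 at 0.487 and 6.18. H2-Q1 and Tgtp1 have near-identical relatives, so their counts are uncertain. The other 3 of the 6 are predicted genes or a ribosomal pseudogene, which the rule for named genes leaves out.

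Reads that fell in no gene, which enter no comparison, made up 36.1% of uniquely aligned reads in the PF4-Cre knockout library against 32.1% in its wild-type control.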

How the results depend on the processing

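The counts of raised and fallen genes moved by over 1.5 times with the count minimum and the fold limit. There were 526 rises and 88 falls at 500 or more counts, 1840 and 664 at 10 or more, 1689 and 755 at 1.5-fold, and 388 and 12 at 4-fold. The share of genes past the limit between the wild-type libraries was 24.9% at 1.5-fold and 1.07% at 4-fold. Under the other alternatives rises numbered 810 to 1164 and falls 151 to 277. Rises made up 82.5% of calls with TMM, 83.3% to 87.5% under the other scalings and corrections, 73.5% at 10 or more counts, 69.1% at 1.5-fold and 97% at 4-fold. None of the named genes past 2-fold changed direction under the 6 scalings and corrections. Such a change would take a shift of over 2-fold. Across the scalings the median log2 ratio of all genes moved only between -0.07 and 0.02. This outcome was therefore all but fixed in advance. Of 144 named genes past 2-fold, 13 were no longer past it with chromosome medians removed, 9 with the GC and length correction and 8 with upper quartile scaling, among them C1qc, Hk3, Tpm2 and Dok2 in each of the 3. Col1a2 and Cd4 were lost under total counts, Itga9 under the GC correction, Prdm16 and Pdgfrb under chromosome medians. No paired analysis was possible because the PF4-Cre comparison has 1 library a side and its values come from no test. A gene with few counts in wild-type has a ratio limited by those counts, and with no replicate the spread between animals is unknown.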
